A study of Mus musculus with 6 samples.

Results

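Kinesins are motor proteins that use ATP to move along microtubules or to take them apart. The genes described here are the protein-coding Kif genes of a mouse prostate cancer cell line, chosen by symbol: Kif, a number and at most 1 letter and 1 digit more. Of 55487 genes in the expression table, 38 met that rule, which uses symbols and not values. The rule and the classes were nonetheless set with earlier results of these data known. By textbook role 12 are mitotic kinesins, 15 are transport kinesins and 11 have other roles or belong to cilia. Mitotic kinesins push spindle poles apart, hold and align chromosomes and build the midzone where the cell divides. Their transcripts are known to accumulate in dividing cells towards mitosis, through promoter elements that bind the MuvB complex, MYBL2 and FOXM1. Transport kinesins carry organelles, vesicles and proteins towards the microtubule plus ends near the cell edge, and cells need them whether or not they divide.

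RNA-seq libraries came from RM-1 cells, an established mouse prostate cancer line, given a lentivirus carrying Bhlhe22 (Bhlhe22 cells, 3 libraries) or a blank lentivirus (vector cells, 3 libraries). The protein encoded by the insert is a DNA-binding factor of the basic helix-loop-helix class, best known from developing neurons. Both groups thus carry a lentivirus, and the labels give no promoter for the insert and do not say whether the cells were clones or pools. The comparison shows which transcripts the presence of the insert goes along with.

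Total counts were 15464709 to 25129552 in the Bhlhe22 libraries and 17950347 to 21223227 in the vector libraries. Bhlhe22 itself had 8706, 14785 and 17995 counts in Bhlhe22 cells and 0 counts in each vector library. The epithelial keratins Krt8 and Krt18 averaged 545 and 665 CPM (counts scaled to the TMM-adjusted library size) in Bhlhe22 cells and 757 and 665 CPM in vector cells, whereas the prostate marker Hoxb13 and the basal keratin Krt5 were at 0 counts in all 6 libraries. Of 12 markers listed for epithelial and prostate cells, 6 were tested. Krt19 was called higher and Krt8 and Vim lower (edgeR, adjusted p under 0.05), beside 10.4% higher and 9.28% lower over all genes tested. With 1 library removed in turn, Krt8 kept its call in 6, Krt19 in 3 and Vim in 1 of 6 fits. Of 12 markers of blood, vessel, liver, muscle and nerve cells, 2 passed the filter on low counts and were not called (log2 fold changes -0.24 and 0.23). Cd3e and Itgam were at 0 counts throughout, though 68.7% of the exon bases of Itgam are shared with another gene on the same strand. Bhlhe22 replicate 1 stood apart from its group: its counts gave a chi-square per gene of 35.7 and 47.3 against replicates 2 and 3, which differed from each other by 13.6, while pairs of vector libraries differed by 10.8 to 11.7. Its values were also lower for longer genes. Against the mean of Bhlhe22 replicates 2 and 3, its median log2 difference was 0.32 over 1419 genes shorter than 1000 bases and -0.13 over 6779 genes longer than 6000 bases, whereas no vector library moved beyond -0.03 or 0.03 in any length class. Among the kinesins that difference had a median of -0.44 over 13 transport genes, of -0.03 over 11 mitotic genes and of 0.07 over 7 others. Results of single kinesins are also given without this library where it turned a direction or changed a call.

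**Figure D1:**
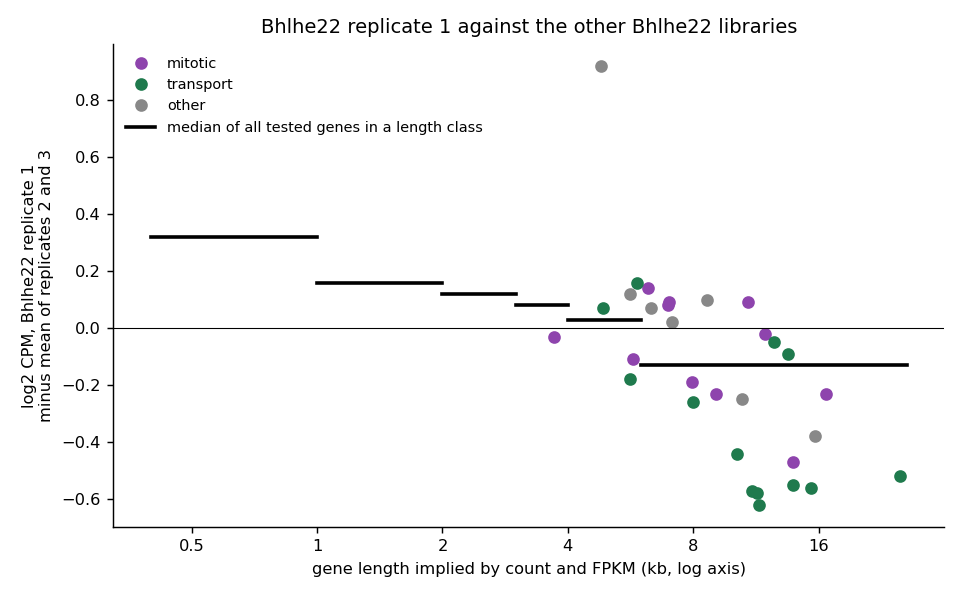
Log2 CPM of Bhlhe22 replicate 1 minus the mean of Bhlhe22 replicates 2 and 3 (y axis) against gene length implied by count and FPKM (kb, log axis), with points for the tested kinesins by class and bars for the median of all tested genes in a length class. The bars descend from 0.32 to -0.13, and the transport genes, with a median length of 11398 bases against 7946 bases in the mitotic genes, lie mostly under 0.

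Mitotic kinesins were lower in Bhlhe22 cells, and transport kinesins showed no common change. Of the 12 mitotic genes 11 passed the filter, and 10 of them fell (edgeR quasi-likelihood test, adjusted p under 0.05), with no mitotic gene above 0 in log2 fold change. The median log2 fold change of these 11 genes was -0.55, in a range from -0.93 to -0.13, beside 0.01 over all 14663 genes tested. Among those genes 19.6% were called, 10.4% as higher and 9.28% as lower. In the same 10 mitotic genes all 3 Bhlhe22 libraries lay below all 3 vector libraries, which was the case for 20.0% of all genes tested. Counting both directions, the groups lay apart in 13 of 31 tested kinesins and in 40.8% of all genes tested. Kif2a, which acts at spindle poles and in neurons, was placed outside the mitotic class and had a log2 fold change of 0.01. With Kif2a counted as mitotic, 10 mitotic genes were lower and the median log2 fold change was -0.53. None of 13 tested transport kinesins was called in either direction, and their median log2 fold change was 0.05. At an unadjusted p under 0.05 edgeR found 1 transport kinesin (Kif3a, higher), and DESeq2 and limma-voom found 2 each. After adjustment DESeq2 called 1 (Kif3a, higher) and limma-voom called 0. The labels do not say whether the 3 libraries of a group came from separate cultures, so these p-values rest on a spread that may be technical. In bulk RNA, fewer cells in mitosis and less transcript in each cell cannot be told apart.

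**Figure D2:**
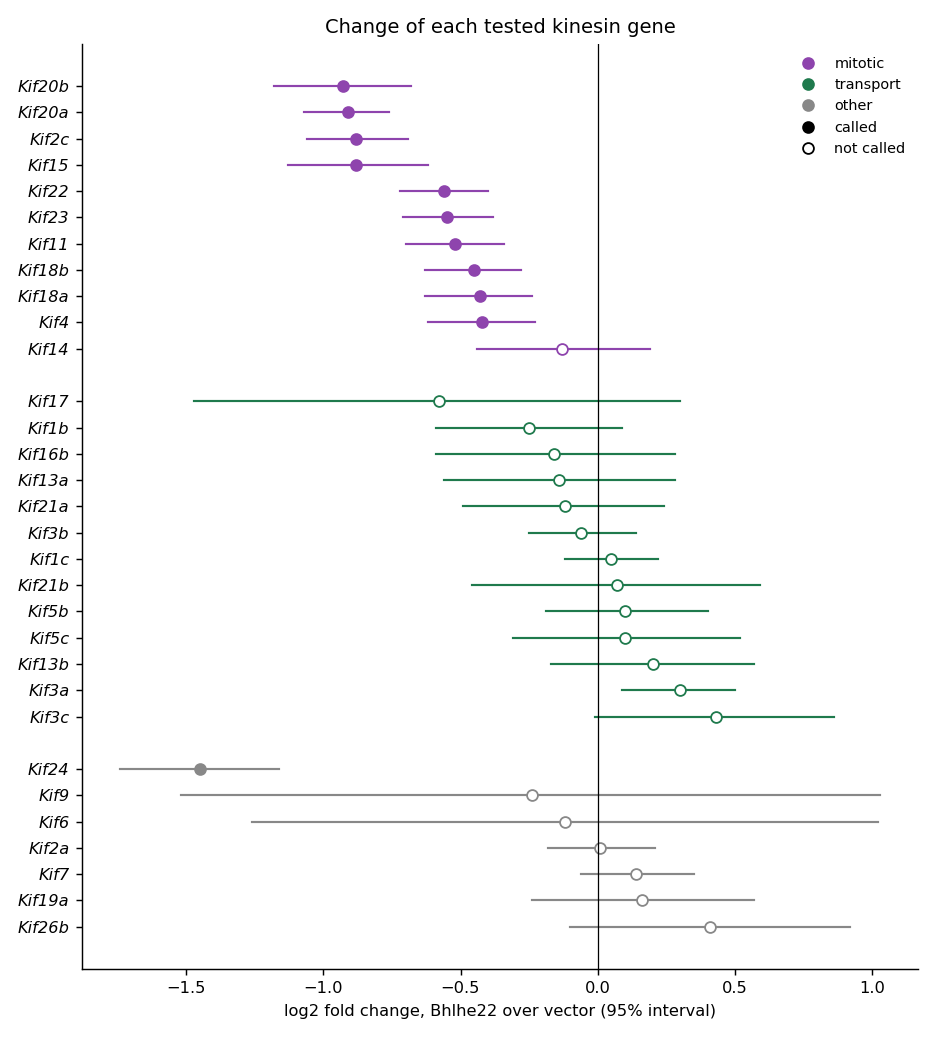
Log2 fold change of each of the 31 tested kinesins, Bhlhe22 cells over vector cells (x axis), with its 95% interval from the edgeR fit; colours mark the class, filled points the genes called at an adjusted p under 0.05. The 10 filled mitotic points lie between -0.93 and -0.42, the 13 transport intervals include 0 in every case but Kif3a, and Kif24 stands lowest at -1.45.

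The motors that assemble the bipolar spindle are Kif11 (Eg5), which slides antiparallel microtubules apart, and Kif15, which can stand in for it. Kif11, on chromosome 19 at chr19:37376403-37421859 (GRCm38), had 115, 132 and 129 CPM in Bhlhe22 replicates 1, 2 and 3 and 177, 187 and 175 CPM in vector replicates 1, 2 and 3. The highest Bhlhe22 library thus stayed well under the lowest vector library. Its log2 fold change was -0.52 (SE 0.08, edgeR adjusted p = 0.0047), or 1.43-fold lower. Kif15 had 32.9, 40.3 and 37.3 CPM in Bhlhe22 cells against 68.6, 73.2 and 61.4 CPM in vector cells, again with no overlap (log2 fold change -0.88, SE 0.11, edgeR adjusted p = 0.0020).

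Motors that act on chromosomes and on the microtubule ends attached to them fell in all 5 tested genes of the group, by 0.42 to 0.88 on the log2 scale. Kif2c (MCAK) is a kinesin-13 that takes microtubules apart at centromeres and so helps to correct faulty attachments. It had 52.6, 46.0 and 49.1 CPM in Bhlhe22 cells against 88.4, 92.8 and 89.4 CPM in vector cells, a log2 fold change of -0.88 (SE 0.08, edgeR adjusted p = 6.1e-04). The chromokinesin Kif22, which pushes chromosome arms towards the spindle equator, had 83.8, 81.0 and 77.0 CPM in Bhlhe22 cells against 120, 114 and 122 CPM in vector cells. The groups lay clearly apart (log2 fold change -0.56, SE 0.07, edgeR adjusted p = 0.0020). Kif18b, a plus-end motor of astral microtubules, had 63.7, 69.4 and 61.4 CPM in Bhlhe22 cells against 86.8, 88.5 and 90.5 CPM in vector cells (log2 fold change -0.45, SE 0.07, edgeR adjusted p = 0.0068). Kif2b, a relative of Kif2c, had 0 counts in all 6 libraries.

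The smallest called changes of the family were those of Kif18a and Kif4. Kif18a, which damps the swings of chromosomes at the metaphase plate, had 34.2, 32.5 and 36.9 CPM in Bhlhe22 cells against 48.1, 47.0 and 44.6 CPM in vector cells (log2 fold change -0.43, SE 0.08, edgeR adjusted p = 0.013). Kif4, a chromokinesin that also brings PRC1 to the spindle midzone, had 65.2, 66.7 and 74.9 CPM in Bhlhe22 cells against 87.6, 95 and 94.8 CPM in vector cells (log2 fold change -0.42, SE 0.08, edgeR adjusted p = 0.013). Neither pair of groups overlapped, but each call depended on the libraries used, and stood in 3 of 6 fits made with 1 library removed. Kif18a missed the threshold without Bhlhe22 replicate 2 (adjusted p = 0.054), vector replicate 1 (0.068) or vector replicate 2 (0.058), and Kif4 without Bhlhe22 replicate 2 (0.054), vector replicate 2 (0.063) or vector replicate 3 (0.062), all by edgeR. Of the exon bases of Kif4, 15.1% also belong to Pdzd11 on the opposite strand, and it is not known here whether reads were assigned by strand.

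Of the 4 motors of the midzone and of cell separation, 3 fell, among them the mitotic genes with the largest changes. Kif20a (MKLP2), which moves the Aurora B complex from centromeres to the midzone, had 97.4, 90.0 and 94.8 CPM in Bhlhe22 cells against 181, 171 and 180 CPM in vector cells. It was thus 1.88-fold lower, with replicates within a narrow band in both groups (log2 fold change -0.91, SE 0.07, edgeR adjusted p = 2.8e-04). Kif20b (MPP1), which acts in the last step of division, had 37.3, 44.9 and 42.7 CPM in Bhlhe22 cells against 79.2, 86.7 and 72.0 CPM in vector cells (log2 fold change -0.93, SE 0.11, edgeR adjusted p = 0.0015). Kif23 (MKLP1), the motor of centralspindlin, which bundles midzone microtubules together with RACGAP1, had 83.2, 81.2 and 74.9 CPM in Bhlhe22 cells against 114, 119 and 116 CPM in vector cells. Its groups did not overlap either (log2 fold change -0.55, SE 0.07, edgeR adjusted p = 0.0023). Of the exon bases of Kif20a, 29.3% are shared with Cdc23 on the opposite strand.

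Kif14, the motor that brings citron kinase to the midbody, was the mitotic kinesin that was not called. It had 62.3, 83.0 and 89.5 CPM in Bhlhe22 cells against 85.6, 89.5 and 82.1 CPM in vector cells. The low value was that of Bhlhe22 replicate 1, and the other libraries overlapped. Its log2 fold change was -0.13 (SE 0.13, edgeR adjusted p = 0.55), with a 95% interval from -0.44 to 0.19, and 0.00 without Bhlhe22 replicate 1. Without that library the 10 lower mitotic genes kept their calls, with log2 fold changes from -0.95 for Kif20a to -0.39 for Kif4.

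**Figure D3:**
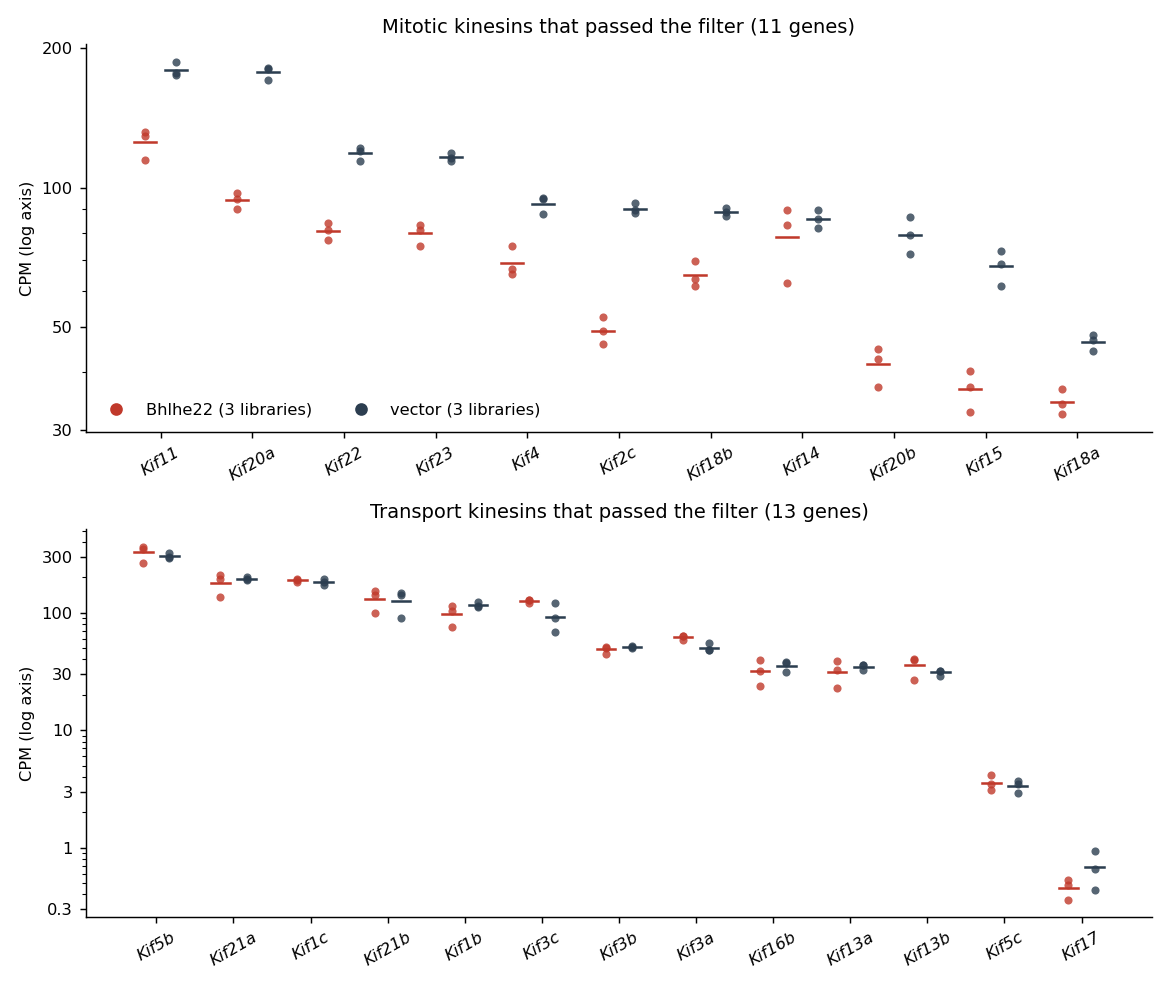
CPM (log axis) of the 11 mitotic (top) and 13 transport kinesins (bottom) that passed the filter, with 1 point per library and a bar at the mean, Bhlhe22 libraries left of vector libraries for each gene. Red and dark points lie apart in every mitotic gene but Kif14, and among the transport genes in Kif3a alone.

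Among kinesin-1 heavy chains, the general plus-end carriers of vesicles and mitochondria, Kif5b was the one at high level. It had 263, 351 and 363 CPM in Bhlhe22 cells against 296, 319 and 294 CPM in vector cells, and Bhlhe22 replicate 1 was the lowest of the 6 libraries. Its log2 fold change was 0.10 (SE 0.13, edgeR adjusted p = 0.62), with a 95% interval from -0.19 to 0.40. Without Bhlhe22 replicate 1 it was called higher (0.23, edgeR adjusted p = 0.012). Kif5c averaged 3.57 CPM in Bhlhe22 cells and 3.34 CPM in vector cells, and the neuronal Kif5a, with 1, 8 and 3 counts in Bhlhe22 cells and 2, 2 and 4 counts in vector cells, did not pass the filter.

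The kinesin-3 motors carry vesicles and endosomes, and all 5 tested members missed the threshold. Kif1b, which carries mitochondria and synaptic vesicle precursors in neurons, had 76.2, 104 and 114 CPM in Bhlhe22 cells against 111, 124 and 115 CPM in vector cells. Bhlhe22 replicate 1 was again the lowest, and the highest Bhlhe22 value lay among the vector values (log2 fold change -0.25, SE 0.15, edgeR adjusted p = 0.28). Without that library the log2 fold change was -0.10. Kif1c was the steadiest of the class, with 184, 192 and 189 CPM in Bhlhe22 cells against 171, 181 and 194 CPM in vector cells and a 95% interval of its log2 fold change from -0.12 to 0.22. Kif13a, Kif16b and Kif13b had log2 fold changes of -0.14, -0.16 and 0.20. In these 3 genes the log2 difference of Bhlhe22 replicate 1 from the mean of its group's other libraries was -0.62, -0.58 and -0.56. Without it the log2 fold change was 0.03 for Kif13a and 0.01 for Kif16b, and Kif13b was called higher (0.36, edgeR adjusted p = 0.011). Kif1a, a motor of neurons, had 0 counts in every library, where 3 counts correspond to 0.119 to 0.197 CPM.

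Kinesin-2 motors carry intraflagellar transport trains into cilia as well as other cargo. Kif3a, a subunit of the heterotrimeric motor, had 63.8, 62.7 and 58.9 CPM in Bhlhe22 cells against 48.1, 55.3 and 47.7 CPM in vector cells. All 3 Bhlhe22 values lay above the vector values, as in 20.8% of all genes tested. The log2 fold change of 0.30 (SE 0.09, 95% interval 0.09 to 0.50) missed the adjusted threshold with edgeR (0.056), and passed it with DESeq2 (0.037), without Bhlhe22 replicate 1 (edgeR, 0.040) and after a correction for GC content and length (edgeR, 0.031). Its partner subunit Kif3b had a log2 fold change of -0.06, with an interval from -0.25 to 0.14. Kif3c, the alternative partner of Kif3a, had 120, 127 and 127 CPM in Bhlhe22 cells against 68.3, 89.5 and 120 CPM in vector cells. Here the vector libraries spread widely and vector replicate 3 reached the Bhlhe22 level (log2 fold change 0.43, edgeR adjusted p = 0.16). Without vector replicate 3 it was called (0.66, edgeR adjusted p = 0.036), and 40.7% of its exon bases are shared with genes on the opposite strand. Kif17, with 8, 7 and 12 counts in Bhlhe22 cells and 12, 9 and 20 counts in vector cells, gave a wide interval from -1.47 to 0.30. Of the kinesin-4 motors that restrain microtubule growth, Kif21a (log2 fold change -0.12) and Kif21b (0.07) were not called either. Neither direction was stable: Kif21a was at 0.04 without Bhlhe22 replicate 1, and Kif21b was at -0.13 without vector replicate 1 and at -0.06 without Bhlhe22 replicate 3.

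Side by side, most transport kinesins lay above the centre of the mitotic class. The 95% interval of the log2 fold change lay wholly above the mitotic median of -0.55 in 9 of 13 transport kinesins, and it included that median in Kif1b, Kif13a, Kif16b and Kif17. Per length, the FPKM values (counts scaled by gene length and library total) summed over the mitotic genes were 97.0, 102 and 102 in Bhlhe22 cells against 153, 156 and 154 in vector cells. The sums over the transport genes were 97.6, 121 and 125 in Bhlhe22 cells against 104, 115 and 114 in vector cells. By the lengths used, the mitotic sum was thus at or under the transport sum in Bhlhe22 cells and above it in vector cells. The ratio of the sums was 0.994, 0.839 and 0.814 in Bhlhe22 cells (mean 0.882 ± 0.0974, SD, n = 3) and 1.47, 1.36 and 1.35 in vector cells (1.39 ± 0.0664, SD, n = 3). These ratios are descriptive, and the difference between the classes was not tested as such.

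The order of levels by FPKM shifted accordingly. In Bhlhe22 cells the highest FPKM of the family was that of Kif5b (31.7 ± 5.49, SD, n = 3), followed by Kif18b (17.3 ± 1.06), Kif21a (16 ± 3.62) and Kif11 (15.6 ± 1.26), and the last 3 did not differ beyond their spread. In vector cells Kif5b (29.9 ± 1.4) was followed by Kif20a (25.7 ± 0.747), Kif18b (24.1 ± 0.517) and Kif11 (22.8 ± 0.820), all mitotic, before Kif21a (17.7 ± 0.686). Kif20a had 13.4 ± 0.515 FPKM in Bhlhe22 cells, under Kif1c (15 ± 0.394). This order rests on the gene lengths implied by count and FPKM, which exceed the exon bases of these genes by unequal amounts. Implied length and exon bases were 6954 and 4338 for Kif20a, 11080 and 6476 for Kif21a, and 12473 and 7276 for Kif1c. For Kif5b, Kif18b and Kif11 they were 10198 and 7981, 3708 and 3572, and 7946 and 7461. The order per exon base was not computed and may differ.

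Among the 11 kinesins of other roles, Kif24 had the largest change of the whole family. Kif24 is a kinesin-13 of the mother centriole that restrains the growth of primary cilia. It had 5.72, 7.49 and 6.37 CPM in Bhlhe22 cells against 17.8, 18.2 and 17.5 CPM in vector cells. It was thus 2.73-fold lower, with no overlap (log2 fold change -1.45, SE 0.12, edgeR adjusted p = 5.0e-04). This call stood whichever of the 6 libraries was removed. Kif2a, another kinesin-13 and a depolymerase at spindle poles and in neurons, had 98.5, 90.0 and 94.1 CPM in Bhlhe22 cells against 84.4, 96.0 and 99.2 CPM in vector cells. Its log2 fold change was 0.01, with an interval from -0.18 to 0.21, and -0.03 without Bhlhe22 replicate 1. Of the exon bases of Kif2a, 19.2% are shared with Dimt1 on the opposite strand. The Hedgehog pathway kinesin Kif7 (log2 fold change 0.14), the ciliary Kif19a (0.16), Kif26b (0.41), and the low Kif6 (-0.12) and Kif9 (-0.24) were not called. Kif7 shares 20.3% of its exon bases with genes on the opposite strand. With 1 library removed Kif6 ranged from -0.66 to 0.29 and Kif9 from -0.92 to 0.15, the lowest value of Kif9 being that without Bhlhe22 replicate 1. Kif12 and Kif26a had 0 counts in all libraries, Kif28 had 1 count in vector replicate 3 alone, and Kif27 had 1, 1 and 8 counts in Bhlhe22 cells and 2, 4 and 12 counts in vector cells. Those 4 genes did not pass the filter.

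A short motif of cell cycle promoters was frequent in the mitotic class. RefSeq gives promoters (GRCm38.p6, 250 bases before to 50 after the start site) for 11 of the 12 mitotic genes, all but Kif20a, and 13 promoters for 11 of the 15 transport genes, all but Kif13b, Kif21b, Kif5a and Kif5b. The cell cycle genes homology region (CHR) is known to bind the MuvB complex, the CCAAT box binds NF-Y, and E2F sites bind E2F factors. They were searched on both strands as TTTGAA for the CHR, TTCGAA for a variant of it, CCAAT, and TTTCCCGC, TTTCGCGC, TTTGCCGC or TTTGGCGC for E2F, and in the kinesin promoters 0 matches of different motifs overlapped. The promoters shown are the mitotic ones with a CHR match within 25 bases of the start site, the motif most frequent in the class, with Kif24, which holds the variant, and Kif3a of the transport class for contrast. Each line runs 5′ to 3′ from 100 bases before to 50 bases after the start site, and capitals mark motif matches, read on either strand.
Kif11 (chr19:37376282-37376431, plus strand): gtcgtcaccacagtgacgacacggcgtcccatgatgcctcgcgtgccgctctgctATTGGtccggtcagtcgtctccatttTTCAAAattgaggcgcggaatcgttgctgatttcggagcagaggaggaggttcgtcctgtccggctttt
Kif15 (chr9:122950981-122951130, plus strand): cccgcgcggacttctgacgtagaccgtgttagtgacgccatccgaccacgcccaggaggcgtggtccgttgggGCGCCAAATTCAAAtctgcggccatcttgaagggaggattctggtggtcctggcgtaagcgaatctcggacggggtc
Kif18b (chr11:102925075-102925224, minus strand): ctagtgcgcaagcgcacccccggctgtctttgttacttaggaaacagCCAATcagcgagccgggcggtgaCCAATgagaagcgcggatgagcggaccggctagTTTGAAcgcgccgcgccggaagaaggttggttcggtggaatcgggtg
Kif20b (chr19:34922258-34922407, plus strand): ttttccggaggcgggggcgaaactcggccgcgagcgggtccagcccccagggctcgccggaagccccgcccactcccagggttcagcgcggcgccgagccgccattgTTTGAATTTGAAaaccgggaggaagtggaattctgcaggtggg
Kif22 (chr7:127042371-127042520, minus strand): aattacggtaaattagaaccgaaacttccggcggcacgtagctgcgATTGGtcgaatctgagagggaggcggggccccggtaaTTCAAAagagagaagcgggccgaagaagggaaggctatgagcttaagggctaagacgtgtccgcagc
Kif23 (chr9:61946750-61946899, minus strand): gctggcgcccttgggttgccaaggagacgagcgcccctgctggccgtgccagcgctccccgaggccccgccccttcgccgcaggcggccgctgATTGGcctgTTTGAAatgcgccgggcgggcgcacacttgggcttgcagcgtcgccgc
Kif4 (chrX:100625965-100626114, plus strand): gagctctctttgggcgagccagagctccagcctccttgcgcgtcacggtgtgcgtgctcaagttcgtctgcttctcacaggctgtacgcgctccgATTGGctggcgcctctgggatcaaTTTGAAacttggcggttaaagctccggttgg
Kif24 (chr4:41464799-41464948, minus strand): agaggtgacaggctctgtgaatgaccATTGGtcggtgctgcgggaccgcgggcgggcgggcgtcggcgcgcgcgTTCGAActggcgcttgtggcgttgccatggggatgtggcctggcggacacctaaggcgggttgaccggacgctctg
Kif3a (chr11:53567269-53567418, plus strand): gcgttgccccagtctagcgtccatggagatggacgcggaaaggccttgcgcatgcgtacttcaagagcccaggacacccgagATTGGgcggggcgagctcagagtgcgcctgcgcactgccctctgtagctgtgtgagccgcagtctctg

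In these lines Kif11 and Kif22 carry the CHR on the reverse strand, 19 and 17 bases before the start site, each with a CCAAT box upstream of it. Kif15 has its CHR, also reversed, 19 bases before the start site, directly after an E2F match, and Kif20b has a pair of adjoining CHR matches after it. Kif18b, Kif23 and Kif4 have the CHR 4, 3 and 20 bases into the transcript, again behind CCAAT boxes. Over the whole 300-base promoters, the CHR was present in 9 of 11 mitotic promoters (81.8%) and in 1 of 13 transport promoters (7.69%, 1 of 2 starts of Kif1a, which had 0 counts). It was also present in 2 of 11 promoters of the other kinesins (18.2%), those of Kif26b and Kif27. It was present in 12.2% of 12709 promoters of tested genes and in 17.9% of all 32851 promoters. Within 25 bases of the start site, a window chosen after the matches were seen, it was found in 7 of 11 mitotic promoters in 0 of 13 transport promoters and in 1 of 11 other promoters, against 1.46% of the promoters of tested genes. That 1 was Kif26b, which was not called (log2 fold change 0.41), with the CHR 9 bases before the start site and a CCAAT box upstream of it. The CCAAT box was found in 63.6% of mitotic, 30.8% of transport and 38.2% of tested promoters. An E2F match was present in Kif15 and Kif18a (2 of 11), in 0 transport promoters and in 3.91% of tested promoters. Kif24 had the variant 26 bases before its start site, a match found in 2.01% of tested promoters.

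Match and change did not always go together within the class. Kif18a fell and holds no CHR match in its 300 bases, Kif2c fell and holds its single CHR match 103 bases before the start site, and Kif14 was not called and holds one farther upstream. The promoter of Kif2b, which had 0 counts and was not tested, holds no CHR match either. The RefSeq start lies 1505, 3867 and 328 bases inside the gene span of the expression table for Kif14, Kif2c and Kif4. In the transport class it lies 11816 bases inside for Kif17 and 19471 bases inside for the Kif1a start with the CHR. In the other promoters of both classes it lies from 40 bases before the span to 149 bases inside it. A match is a run of letters, and binding was not measured.

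**Figure D4:**
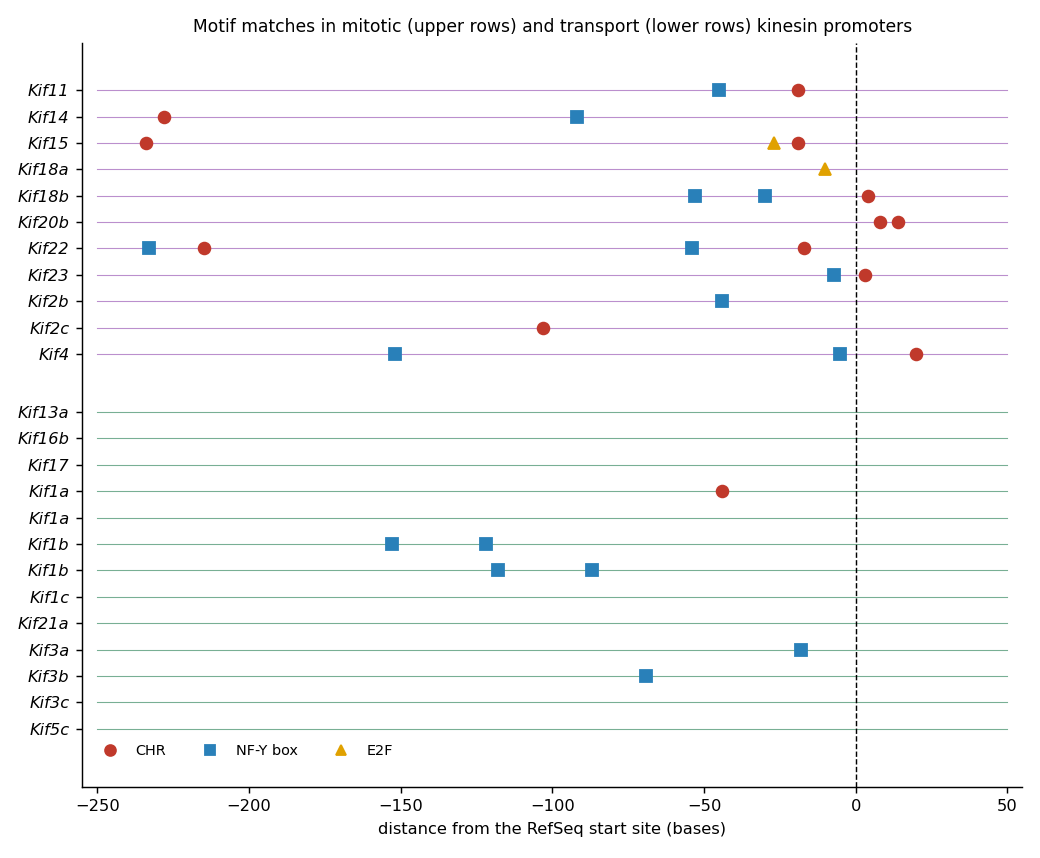
Position of each motif match (x axis, bases from the RefSeq start site, dashed line) in the promoters of mitotic (upper) and transport kinesins (lower), with 1 line per promoter; Kif1a and Kif1b have 2 promoters each, and the NF-Y box is the CCAAT box. CHR matches gather within 25 bases of the start site in 7 of 11 mitotic promoters and in 0 of 13 transport promoters.

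Genes of proteins that work with mitotic kinesins were mostly lower. Of 18 such genes 14 fell, beside 9.28% lower over all genes tested. All 18 had negative log2 fold changes, and the median was -0.46. Cep55, which directs abscission at the midbody, fell by 0.90 on the log2 scale (SE 0.07, edgeR adjusted p = 4.5e-04). Aurkb, the kinase that Kif20a relocates, fell by 0.79 (SE 0.08, edgeR adjusted p = 8.8e-04). Tacc3, a spindle stabiliser, fell by 0.72 and Hmmr, a spindle assembly factor, by 0.58 on the log2 scale. Between 12 and 17 genes of the list were called in the fits that left out 1 library.

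Tubulins, the subunits of the track itself, fell in 7 of 14 tested genes, with 1 higher and a median log2 fold change of -0.46. The shares over all genes tested were 9.28% lower and 10.4% higher. Tubb5, the main beta-tubulin of dividing cells, averaged 1170 CPM in Bhlhe22 cells and 2260 CPM in vector cells, a log2 fold change of -0.95 (SE 0.06, edgeR adjusted p = 1.7e-04). Tubb4b (-1.06), Tuba1b (-0.88) and Tuba1a (-0.92) also fell, and because alpha-tubulin genes are near copies, reads may have been split between them. The higher gene was Tubb4a (0.62, edgeR adjusted p = 0.047), chosen after its value was seen and the count of higher tubulins was 1 with vector replicate 1 removed and 0 with any other library removed. With all libraries it was also 0 by DESeq2, and in edgeR fits with the replicate block, without a filter, scaled by library size only, or scaled by upper quartiles.

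Regulators of the G2/M programme fell in part, with 7 of 21 lower and a median log2 fold change of -0.26. Over all genes tested 9.28% were lower. The B-MYB gene Mybl2 had 32.7, 31.6 and 31.6 CPM in Bhlhe22 cells against 75.6, 68.2 and 82.2 CPM in vector cells (log2 fold change -1.24, SE 0.09, edgeR adjusted p = 2.9e-04). E2f7 (-1.43), E2f8 (-1.15) and E2f1 (-0.81), factors of the E2F family, fell as well. The list was not split into activators and repressors, so its count of lower genes gives no direction for the programme. Foxm1, chosen for its role in G2/M transcription, was not called, with 107, 117 and 120 CPM in Bhlhe22 cells and 119, 164 and 129 CPM in vector cells (log2 fold change -0.26, edgeR adjusted p = 0.18). The number of lower regulators was 11 without Bhlhe22 replicate 1 and 5 to 7 with any other library removed.

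Partners of transport kinesins and the opposing motor had calls in both directions, at shares near those over all genes tested (10.4% higher and 9.28% lower). Of 14 light chains and cargo adaptors 2 were higher (Klc2, a kinesin-1 light chain, 0.85, and Klc4, 0.47) and 1 was lower (Kifap3, the non-motor subunit of kinesin-2, -0.32). The higher count was 4 without Bhlhe22 replicate 1, 1 without Bhlhe22 replicate 3 or vector replicate 3 and 0 with any other library removed, and Kifap3 kept its call in 1 of 6 such fits, that without Bhlhe22 replicate 1. Of 25 genes of dynein and dynactin, the minus-end motor and its activator, 4 were higher and 2 lower. The dynein light intermediate chains Dync1li1 (0.46, edgeR adjusted p = 0.0037) and Dync1li2 (0.44, 0.0043) and the regulator Ndel1 (0.37, 0.0076) rose, whereas Spdl1 (-0.51, 0.0069), the adaptor that brings dynein to kinetochores in mitosis, fell. Pafah1b1 (0.28) and Nde1 (-0.34), chosen after their values were seen, complete the called genes. The count of higher dynein genes was 2 without vector replicate 1 and 3 to 6 with any other library removed, and that of lower ones was 1 with any 1 vector library removed.

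Intraflagellar transport genes, whose products ride on kinesin-2, split into 3 higher and 4 lower of 19, with a median log2 fold change of -0.15, beside 10.4% higher and 9.28% lower over all genes tested. Ift74 (-0.72), Wdr35 (-0.55) and Ift27 (-0.55) fell and Ift122 (0.40) rose. With Bhlhe22 replicate 2, vector replicate 1 or vector replicate 2 removed, 0 of them were called higher. This count was 1 with the third replicate of either group removed and 4 with Bhlhe22 replicate 1 removed. The lower count was 2 with vector replicate 1 or vector replicate 2 removed. Of 4 kinesins named otherwise, the kinetochore motor Cenpe, with 130, 155 and 163 CPM in Bhlhe22 cells against 205, 212 and 201 CPM in vector cells (log2 fold change -0.46, edgeR adjusted p = 0.015), and the minus-end motor Kifc3 (-0.38, edgeR adjusted p = 0.044) fell. Cenpe lost its call with any 1 vector library removed, with an edgeR adjusted p of at most 0.068, and Kifc3 kept its call in 1 of 6 such fits, that without Bhlhe22 replicate 1. Kifc1 and Kifc2, the other kinesins of this list, were tested and not called. Of the exon bases of Kifc3, 27.5% are shared with genes on the opposite strand.

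**Figure D5:**
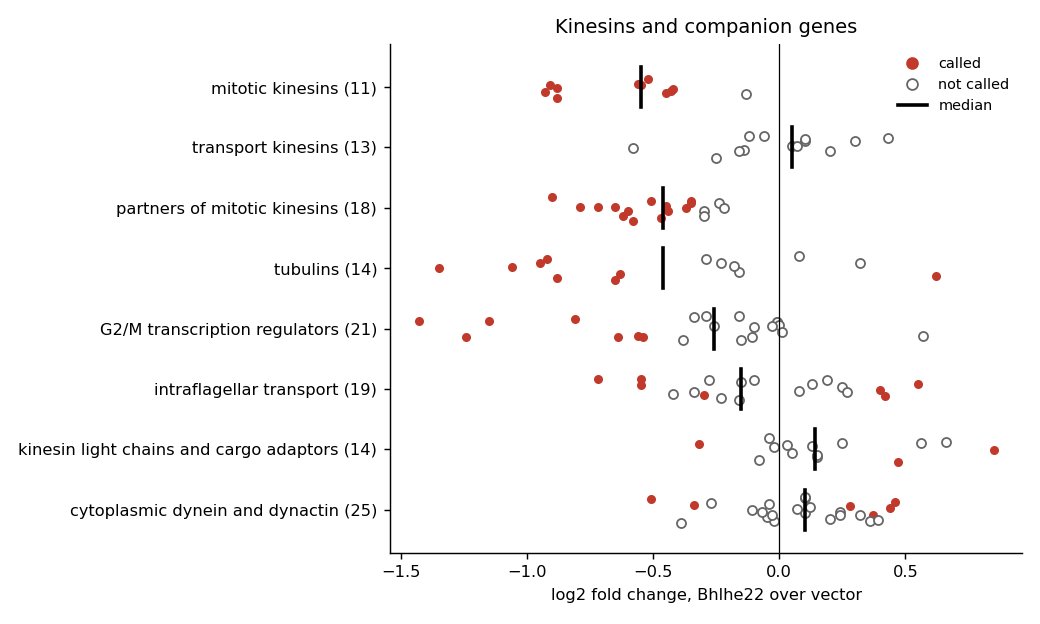
Log2 fold change, Bhlhe22 cells over vector cells (x axis), of each tested gene in the kinesin classes and companion lists, with 1 point per gene, filled where called, a bar at the median and the number of tested genes in brackets. Medians run from -0.55 in the mitotic kinesins to 0.14 in light chains and cargo adaptors.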

How the data were processed

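RNA-seq counts of 6 RM-1 libraries were used, 3 per group. The authors deposited raw counts per gene and FPKM values made from the same counts; the pair of values implied 1 length per gene in all 6 libraries, within 0.001%, for 10435 of 10435 genes that reached 100 counts throughout. CASAVA 1.8, HISAT2 2.1.0, StringTie 1.3.4b, edgeR and the build GRCm38 are named, per the submitters' processing notes, without their roles. Annotation release and strand use in counting: not given in the sources used here. Exon overlaps came from GENCODE M21 and promoters from RefSeq.

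All genes were fitted with edgeR 4.0.16 in R 4.3.3 (TMM scaling, filterByExpr with a minimum count of 10 and total of 15, robust quasi-likelihood test, no covariate), with Benjamini-Hochberg adjustment over the 14663 genes tested and a threshold of 0.05. SEs and 95% intervals come from that test. CPM uses TMM-scaled library sizes, and 3 counts correspond to 0.119 to 0.197 CPM per library, which covers counting error only. The fit was tested on simulated data. Alternatives used DESeq2 1.42.0, limma 3.58.1 (voom, or log2 of FPKM plus 1), other scalings and filters, a replicate block, other class borders and leaving out each library. A correction for GC content and length (splines with 5 degrees of freedom) was chosen after seeing the data. Software for tables and figures was Python 3.11.15, pandas 2.3.3 and matplotlib 3.10.9.

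The members, classes and companion lists were chosen with earlier results of these data known. The rule for naming took every kinesin, printed library values for called kinesins and for Kif11, Kif23, Kif5b, Kif3a and Kif1b, and took up to 4 called members of each companion list by adjusted p. Library values of Kif14, Kif1c, Kif3c, Kif2a and the genes with few counts were added outside that rule, after their values were seen.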

Additional observations from a re-analysis of the deposited data

How the results depend on the processing

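The direction of the mitotic class held in all settings tried: 10 mitotic kinesins were lower in each of the 10 settings that kept every library, and 8 to 10 in the fits that left out 1 library, with a median log2 fold change from -0.59 to -0.53. DESeq2 called 1 kinesin higher, the transport gene Kif3a. The correction for GC content and length was chosen after seeing the data. It called 1 transport kinesin higher (Kif3a) and 1 lower (Kif1b, log2 fold change -0.20). In all it called 2044 genes higher, beside 1520 in the main fit, and 2061 lower, beside 1361. Leaving out 1 library gave 0 to 3 higher kinesins, all of them in the transport class, where the highest number came without Bhlhe22 replicate 1. Over all genes it gave 715 to 2345 higher and 633 to 2337 lower, the highest numbers again without that library and the lowest without vector replicate 1. With Kif2a counted as mitotic and Kif21a and Kif21b left out of the transport class, the ratio of summed FPKM differed by -0.706 between Bhlhe22 and vector cells, beside -0.507. The cause of these shifts was not tested. With the replicate block 10 mitotic kinesins were lower and 0 transport kinesins were called. Deviations of log2 CPM from the group mean correlated at 0.0293, 0.0214 and 0.0156 between same-numbered libraries. The numbers were therefore not taken to pair the libraries. By the same measure Bhlhe22 replicate 1 correlated best with vector replicate 3 (0.0406). Kifap3 and Kifc3 lost their calls with the block and with no filter, and Vim with the block. Kinesins with few counts, such as Kif17, Kif6 and Kif9, had intervals too wide to show a change of the size seen in the mitotic class.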
